A study of Mus musculus with 8 samples.

Results

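The clustered replication-dependent histone genes encode the linker histone H1 and the core histones H2A, H2B, H3 and H4, and stand in the Hist1 cluster on chromosome 13 and in smaller groups on chromosomes 3, 11 and 6 of the mouse genome. They were taken by name, as every gene of the count table whose symbol begins with Hist1h to Hist4h in GENCODE naming, without pseudogene symbols ending in -ps, and with at least 20 reads summed over all libraries. Of the 55335 genes in the table, 70 carried such a name, 69 remained without the pseudogene, and 23 reached 20 reads. By family, 4 of 6 named H1 genes were kept, 2 of 20 H2A, 8 of 18 H2B, 5 of 12 H3 and 4 of 13 H4. The Hist1 cluster gave 20 of its 56 named genes, Hist2 gave 1 of 10 and Hist3 both of its 2, while the only gene of Hist4, Hist4h4, had 11 reads and was left out. Just inside the limit stood Hist1h3f with 20 reads and Hist1h2bg with 21, and just outside it Hist1h2bb with 19, and Hist1h3e and Hist2h4 with 18 each. Of the 69 named genes, 10 had no read in any library.

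RNA-seq was performed in E14 mouse embryonic stem cells (ESCs), a feeder-independent line grown here on gelatin with leukemia inhibitory factor (LIF) and the kinase inhibitors CHIR99021 and PD0325901, in 4 groups of 2 libraries. All cells were infected with the lentiviral vector GV248 and selected with puromycin. The control carried a scramble shRNA, and the other groups carried an shRNA against Sox2, a pluripotency transcription factor, against Cdk9, the kinase of the elongation factor P-TEFb, or against hnRNPK, an RNA-binding protein. The duplicates of a group are biological replicates by the study's methods, and which of the shRNAs to a target a library received was not given in the sources used here.

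Histone proteins are needed in bulk while DNA is copied, and the genes described here are transcribed mainly in S phase. Their mRNAs are the only known cellular mRNAs of animals that normally end without a poly(A) tail. In its place they carry a conserved stem-loop a short way past the stop codon, which is bound by the stem-loop binding protein SLBP, and the cut after it is made by a complex built around the U7 small nuclear RNA. The same stem-loop sets the rapid decay of these mRNAs when replication stops. Some of these genes can also give longer transcripts that are cut and polyadenylated downstream. The libraries were made from RNA bound to oligo(dT) beads, so the reads are not a measure of total histone mRNA, and the shares of stem-loop-ended and polyadenylated molecules among them cannot be told apart.

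The stem-loop was found in the annotated transcripts of 46 of the 69 named genes and of 17 of the 23 kept ones. It began 24 to 41 bases past the stop codon in the kept genes. The 46 genes held 8 distinct versions of its 16 bases, of which the kept genes held 6, and the commonest stood in 26 named and 10 kept genes. A gene of each version among the kept genes is given here, 5′ to 3′ on the gene's strand as DNA, with the stem-loop in capitals and its position on GRCm38, since this element marks where the usual mRNA ends.
Hist1h1c (H1, + strand, chr13:23739512-23739527): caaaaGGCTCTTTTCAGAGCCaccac
Hist1h3c (H3, − strand, chr13:23745047-23745062): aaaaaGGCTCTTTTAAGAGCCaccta
Hist1h3g (H3, + strand, chr13:23535889-23535904): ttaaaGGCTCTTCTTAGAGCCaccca
Hist1h4d (H4, + strand, chr13:23581950-23581965): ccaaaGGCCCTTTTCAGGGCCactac
Hist1h4i (H4, − strand, chr13:22040966-22040981): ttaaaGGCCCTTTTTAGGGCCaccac
Hist1h4a (H4, − strand, chr13:23760800-23760815): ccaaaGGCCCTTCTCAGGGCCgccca

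The reads were few and lay mostly in genes whose annotated model runs on well past the stem-loop or, where none was found, past the stop codon. Library totals were 16709201 to 17719366 counts, and the 23 genes together held 3875 reads over 8 libraries, which was 91.2% of the 4251 reads of all 69 named genes. Models that ran more than 100 bases past the stem-loop, or past the stop codon where no stem-loop was found, were annotated for 28 of the 69 named genes. Of these 28, 16 (57.1%) reached 20 reads, with a median of 22 and a maximum of 1857. Of the 39 genes whose model ended within 100 bases of either point, 7 (17.9%) did so, with a median of 11 and a maximum of 59. The 2 remaining genes had no coding transcript. Longer models offer more bases to count, with a median exon length of 1255 against 463 bases, and the part of length in this difference was not tested. The 16 kept genes with long models carried 93.0% of the reads of the kept genes.

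**Figure D1:**
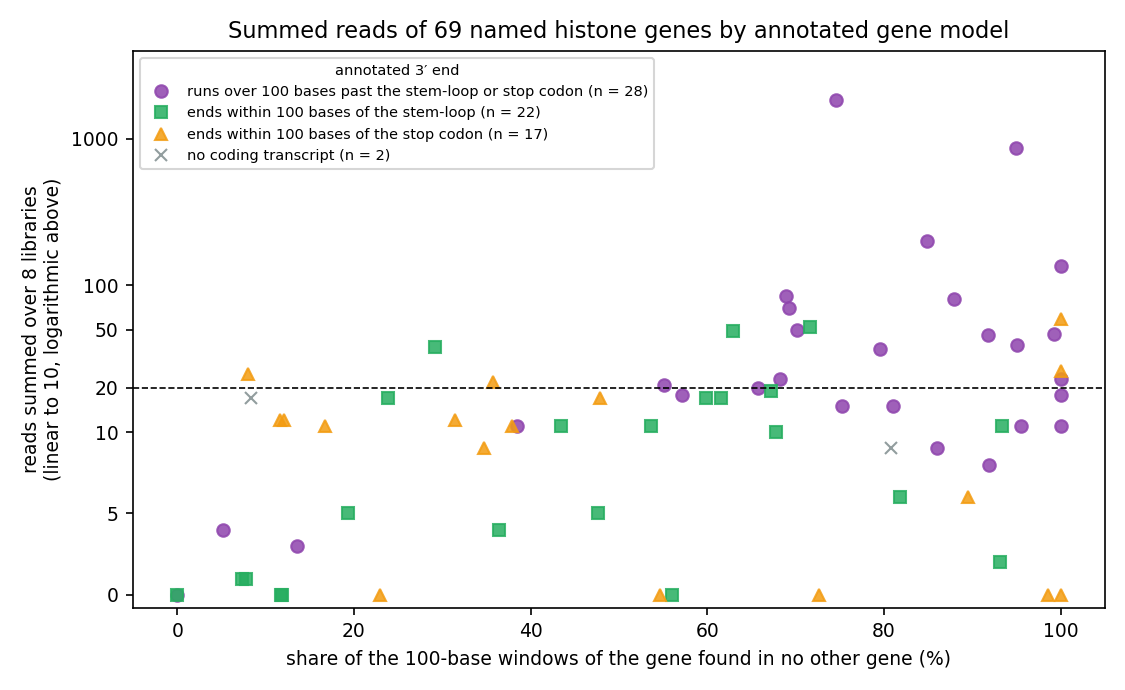
Reads summed over the 8 libraries (vertical axis, linear to 10 and logarithmic above) for each of the 69 named histone genes against the share of its 100-base windows that occur in no other annotated gene (horizontal axis, percent), with the symbol showing where the annotated model ends and the dashed line at 20 reads. The highest 7 points all belong to models that run on past the stem-loop or stop codon, and genes with few windows of their own lie low.

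Near-identical copies make these counts uncertain, since how the counting treated reads that fit several genes was not given in the sources used here. In the 14 named genes with under 20% of 100-base windows of their own, the median was 3.5 reads and 1 gene, Hist1h3h, was kept. In the other 55 the median was 17 and 22 were kept. H2A genes had the lowest median share of windows of their own, 35.5%, and H1 genes the highest, 99.6%. Sums over all named genes of a family do not depend on how reads were split among its copies. Sums over the kept genes alone can, since reads given to a copy that was left out are not in them. Reads discarded as multi-mapping would be missing from both. Every named H2A gene also overlaps another annotated gene, while most named genes of the other families do not. Reads dropped in overlaps, or given to the other gene, would be missing from both kinds of sum too.

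Hist1h2bc, which encodes an H2B, and Hist1h1c, which encodes the linker histone H1.2, held 70.3% of the reads of the 23 genes, 1857 and 869 in turn. Per kilobase of exon, Hist1h2bc had a mean of 11.5 CPM (TMM-normalized counts scaled to a common library size) over the 8 libraries and Hist1h1c 3.98. Next in order were Hist1h4i with 1.97 CPM per kilobase, Hist1h2bp with 0.864, Hist1h2ae with 0.710, Hist1h3g with 0.663, Hist1h3c with 0.592, Hist1h2bk with 0.574, Hist1h1a with 0.567, Hist1h4k with 0.506, Hist3h2ba with 0.453 and Hist1h3h with 0.437. From Hist1h2bp downward every one of these genes had 85 or fewer reads in all, so their order is loose.

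Hist1h2bc (chr13:23684199-23692908, + strand) is annotated with an intron after its coding exon and a second exon at its far end, and its transcript holds no stem-loop. Hist1h1c (chr13:23738808-23740367, + strand) is a gene of 1 exon whose model runs 840 bases past the stem-loop printed above and holds the poly(A) signal AATAAA in its last 50 bases. Hist1h4i, an H4 gene with 201 reads, runs 330 bases past its stem-loop and holds the variant signal ATTAAA in its last 50 bases. Hist2h2be (chr3:96221119-96223738, + strand), an H2B gene with 135 reads, runs 2192 bases past its stop codon with no stem-loop found and holds AATAAA in its last 50 bases. The deposited counts are per gene, so where along these models the reads fell is not known.

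Many H2A and H2B genes stand head to head and share the stretch between their starts. Among the named genes, 13 such pairs had starts within 500 bases, all of 1 H2A and 1 H2B gene, and 5 of them included a kept gene. Reads were unequal within these pairs. Hist1h2bc had 1857 reads and its partner Hist1h2ac, 251 bases away by their starts, had 8, and per kilobase of exon this was 11.5 against 0.0232 CPM. Hist1h2ac is also annotated as a long model, with 91.9% of windows of its own, and overlaps Gm24991 and Gm44350. Hist2h2be had 135 reads against 2 for Hist2h2ac, and Hist1h2bp had 85 against 11 for Hist1h2an, of which only 16.7% of windows were its own. Each of these H2B genes was the higher of its pair in all 8 libraries. Hist1h2ae and Hist1h2bg, with 70 and 21 reads, were the only pair with both genes kept, and there the H2A gene was higher in 8 libraries. Hist1h2bk had 38 reads against 12 for Hist1h2ah and was higher in 7 libraries. The H2A genes of these pairs all overlap other annotated genes, with Gm44492 at Hist2h2ac, Gm44346 at Hist1h2an, Gm44390 at Hist1h2ah and Gm44394 at Hist1h2ae. No such overlap is annotated for their H2B partners. How reads in overlaps were counted was not given, and the part of overlap in these differences was not tested.

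The stretch before Hist1h2bg, shared with Hist1h2ae on the other strand, is shown because both genes were kept. It is the 150 bases before the RefSeq start of Hist1h2bg (GRCm38.p6, chr13:23571250-23571399, + strand), with CCAAT, ATTTGCAT and TATAAA in capitals.
Hist1h2bg promoter: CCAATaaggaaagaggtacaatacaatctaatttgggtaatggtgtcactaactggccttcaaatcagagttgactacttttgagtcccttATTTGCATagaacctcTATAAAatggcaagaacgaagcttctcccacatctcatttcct
RefSeq promoters, 250 bases before to 50 after a start, were given for 20 of the 23 genes. Searched on both strands for motifs none of which contains another, CCAAT stood in 18 of the 20 (90%) against 37.4% of 32544 promoters of all genes. TATAAA stood in 14 of the 20 (70%) against 13.6%, and ATTTGCAT, the octamer known from H2B promoters, in 5 of the 20 (25%) against 1.75%. A motif was counted at any position, so the TATAAA shares are not shares of promoters with a TATA box. On the gene's strand TATAAA began at -33 from the start in Hist1h1a, at -137 in Hist1h4i and at 41 in Hist1h4a. The 5 genes with the octamer were H2A or H2B genes, namely Hist1h2ae, Hist3h2a, Hist1h2be, Hist1h2bk and Hist1h2bg. A kept gene was counted if any of its promoter entries held the motif, while the shares over all genes count each distinct promoter sequence. Hist1h2be did not hold the octamer in all of its entries. The promoters of Hist1h2ae and Hist1h2bg overlap and hold the same octamer, so the percentages are only roughly comparable. Hist1h1c held CCAAT and neither of the other motifs. No promoter entry was given for Hist1h2bc, Hist2h2be and Hist1h3f.

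Knockdown was first checked on the targeted mRNAs. Sox2 stood at 412 and 530 CPM in control and at 320 and 283 CPM in Sox2-KD, which was a fall on the log2 scale of -0.64 (SE 0.16, adjusted p = 0.0479, quasi-likelihood test of edgeR, Benjamini-Hochberg over 16504 genes). Cdk9 was at 109 and 129 CPM in control and at 73.0 and 53.1 CPM in Cdk9-KD (log2FC -0.91, SE 0.18, adjusted p = 0.0985 by the same edgeR test). Hnrnpk was at 1093 and 1129 CPM in control, and at 696 and 1143 CPM in those labelled hnRNPK-KD. Replicate 2 of that label was thus not below control, and every value of the group is given as that of libraries so labelled. The 12 ESC markers checked were all measured and summed to 7059 to 9298 CPM of the library total in every library, against 8.58 to 18.9 CPM for 9 fibroblast markers, of which Twist2 was at 0 throughout.

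The summed reads of the 23 genes were higher in Sox2-KD than in control. As CPM of the library total with no TMM factor (unscaled CPM) they were 26.8 and 18.3 in control, 36.4 and 39.2 in Sox2-KD, 30.3 and 23.5 in Cdk9-KD, and 26.5 and 22.2 in those labelled hnRNPK-KD. Both Sox2-KD libraries lay above the other 6, while the Cdk9-KD and labelled hnRNPK-KD libraries overlapped control. The control libraries differed from each other by more than counting error, with exact Poisson 95% intervals of 24.4 to 29.3 and 16.4 to 20.4 CPM, and intervals of this kind cover counting error only. As means, control had 22.55 ± 6.02 CPM (SD, n = 2), Sox2-KD 37.8 ± 1.97, Cdk9-KD 26.9 ± 4.81 and those labelled hnRNPK-KD 24.35 ± 2.98. The ratio to control was 1.68, 1.19 and 1.08 in turn, and no test was made of these sums. In bulk samples such as these, a change in the share of cells that transcribe a gene and a change in its RNA per cell cannot be told apart.

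**Figure D2:**
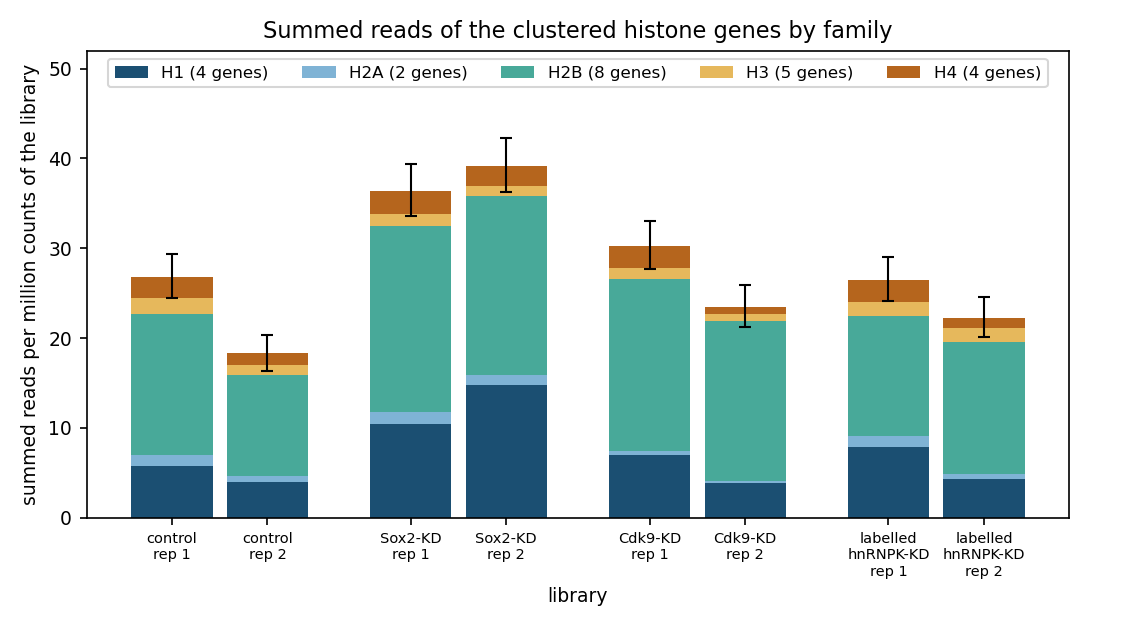
Reads of the 23 clustered histone genes as unscaled CPM of each library, stacked by histone family, with the exact Poisson 95% interval of the total as a bar. The Sox2-KD libraries reach 36.4 and 39.2, above the range of 18.3 to 30.3 of the other 6 libraries, and the H1 and H2B segments make up most of every column.

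Most of this difference lay in Hist1h1c and Hist1h2bc. Without them the other 21 genes summed to 10.2 and 5.98 unscaled CPM in control, 10.8 and 9.10 in Sox2-KD, 7.63 and 4.64 in Cdk9-KD, and 10.5 and 6.998 in those labelled hnRNPK-KD. The 4 groups overlapped on this measure, apart from Cdk9-KD lying below Sox2-KD. By family, H1 genes summed to 5.77 and 4.01 unscaled CPM in control and to 10.4 and 14.8 in Sox2-KD, where they took 28.5% and 37.7% of the reads of the 23 genes against 21.5% and 21.9% in control. In Cdk9-KD the H1 share was 23% and 16.3%, and in those labelled hnRNPK-KD it was 29.6% and 19.3%. Most H1 reads were of Hist1h1c. The other 3 H1 genes, a set also chosen after seeing the data, summed to 0.848 and 1.13 unscaled CPM in control and 1.25 and 1.62 in Sox2-KD. They summed to 0.769 and 0.458 in Cdk9-KD, and to 0.850 and 0.677 in those labelled hnRNPK-KD. All 20 named H2A genes together gave 40 and 33 reads in control, 31 and 36 in Sox2-KD, 17 and 15 in Cdk9-KD, and 37 and 25 in those labelled hnRNPK-KD. The Cdk9-KD libraries were the lowest 2 of the 8 for H2A. All of these H2A genes overlap other annotated genes, and the part of overlap in these sums was not tested. H2B reads were 15.6 and 11.3 unscaled CPM in control, 20.7 and 19.9 in Sox2-KD, 19.1 and 17.8 in Cdk9-KD, and 13.3 and 14.7 in those labelled hnRNPK-KD, so that for H2B both Sox2-KD and Cdk9-KD lay above control. This rested on Hist1h2bc. Without it, an alternative chosen after seeing the data, the other 7 H2B genes summed to 3.96 and 1.86 unscaled CPM in control, 4.27 and 2.99 in Sox2-KD, 2.66 and 2.29 in Cdk9-KD, and 4.36 and 3.10 in the libraries labelled hnRNPK-KD. Control then overlapped every other group, and the ratio of means in Cdk9-KD turned to 0.851.

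Other measures also differed between the groups. The 26 S phase genes checked summed to 6225 and 6423 unscaled CPM in control and to 4848 and 4477 in Sox2-KD, and 9 trophectoderm markers to 89.7 and 100 CPM in control and to 195 and 337 in Sox2-KD. In Cdk9-KD the S phase genes summed to 5542 and 5533 CPM, and in those labelled hnRNPK-KD to 5512 and 5959. The S phase sums were thus below both control libraries in every other group, while the histone sums were above control only in Sox2-KD. Trophectoderm markers summed to 83.9 and 77.7 CPM in Cdk9-KD and to 94.3 and 126 in those labelled hnRNPK-KD. The part of either list in the histone reads was not tested.

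The low counts left few of the genes to test. The filter kept 9 of the 23 genes, which held 87.9% of their reads. It asked for about 0.568 CPM, before TMM scaling, in at least 2 libraries, and Hist1h1a and Hist3h2a passed it only through both Sox2-KD libraries, so that some difference was built into their passing. Hist1h2be reached that level in no control library. No count or median over the 9 genes is therefore offered as support for a direction. The 14 genes that did not pass had 20 to 52 reads each, and single libraries held 0 to 12.

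**Figure D3:**
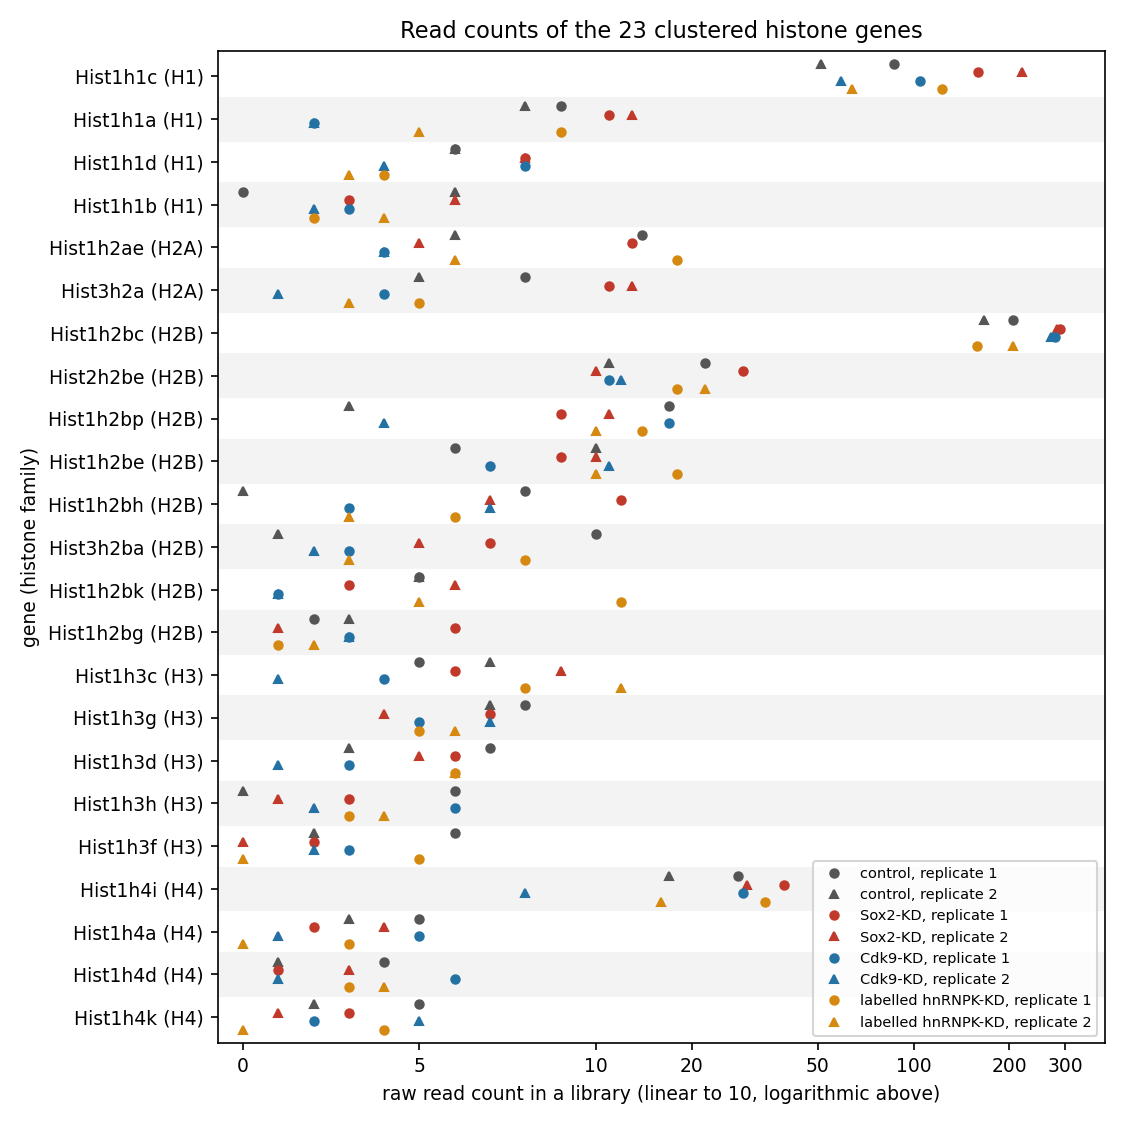
Raw read counts (horizontal axis, linear to 10 and logarithmic above) of each of the 23 genes in each of the 8 libraries, by family, with colour for the group, circles for replicate 1 and triangles for replicate 2. Hist1h2bc and Hist1h1c stand far to the right of the rest. Hist1h1a and Hist3h2a have their highest counts in Sox2-KD and their lowest group mean in Cdk9-KD, where Hist3h2a overlaps the libraries labelled hnRNPK-KD.

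No clustered histone gene passed the test in any comparison. The threshold was an adjusted p under 0.05 and a log2 fold change (log2FC) over 0.6 in size in the quasi-likelihood test of edgeR. For Sox2-KD against control, 0 of 9 genes passed beside 4.32% of all tested genes. In Cdk9-KD against control it was 0 of 9 beside 0.139%, and for libraries labelled hnRNPK-KD against control 0 of 9 beside 0% of all tested genes, of which 1325 had an unadjusted p under 0.05 and DESeq2 called 74. Between knockdowns, it was 0 of 9 beside 7.33% for Sox2-KD against Cdk9-KD, 0 of 9 beside 5.90% for Sox2-KD against the libraries labelled hnRNPK-KD, and 0 of 9 beside 0% for Cdk9-KD against those libraries, where 943 of all tested genes had an unadjusted p under 0.05 and DESeq2 called 49. At an unadjusted p under 0.05 by edgeR, 2, 2 and 0 of the 9 genes passed against control, beside 3182, 1720 and 1325 of all 16504 tested genes. Between knockdowns 3, 3 and 2 passed, beside 3578, 3518 and 943. DESeq2 called Hist1h1c in Sox2-KD against control (adjusted p = 0.0167), where it called 1029 of the 16504 genes. It called none of the 9 in the other 5 comparisons. Its own filter gave the adjusted p of 5 of the 9 genes as NA in each comparison with control.

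Hist1h1c had its highest levels in Sox2-KD. It stood at 4.89 and 2.92 CPM in control, 8.78 and 12.5 CPM in Sox2-KD, 6.13 and 3.49 CPM in Cdk9-KD, and 7.20 and 3.72 CPM in those labelled hnRNPK-KD. Both Sox2-KD libraries were above all others, and the remaining groups overlapped. Against control the log2FC in Sox2-KD was 1.45 (SE 0.42, adjusted p = 0.0806 in edgeR), in Cdk9-KD 0.30 (SE 0.42) and in those labelled hnRNPK-KD 0.48 (SE 0.42). Against Cdk9-KD, Sox2-KD had a log2FC of 1.15 (SE 0.41, adjusted p = 0.128 in edgeR).

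Hist1h2bc had close values in Sox2-KD and Cdk9-KD. It stood at 11.6 and 9.56 CPM in control, 15.9 and 16.1 CPM in Sox2-KD, 16.2 and 15.9 CPM in Cdk9-KD, and 9.25 and 11.97 CPM in those labelled hnRNPK-KD. The 4 Sox2-KD and Cdk9-KD libraries lay close together and above the other 4. The log2FC against the shared control was 0.60 (SE 0.22, adjusted p = 0.164 in edgeR) in Sox2-KD and 0.61 (SE 0.22, adjusted p = 0.376 in edgeR) in Cdk9-KD. Among the libraries labelled hnRNPK-KD the value was 0.01 (SE 0.22), and between Sox2-KD and Cdk9-KD it was -0.01 (SE 0.22).

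Among the other H1 genes, Hist1h1a, which encodes H1.1, had 9 and 8 reads in control, 11 and 13 in Sox2-KD, 2 and 2 in Cdk9-KD, and 9 and 5 in those labelled hnRNPK-KD. Its Cdk9-KD libraries were the lowest and its Sox2-KD libraries the highest. The log2FC against control was -1.97 (SE 0.70, adjusted p = 0.369 in edgeR) in Cdk9-KD and 0.47 (SE 0.54, adjusted p = 0.687 in edgeR) in Sox2-KD. Between Sox2-KD and Cdk9-KD it was 2.45 (SE 0.67, adjusted p = 0.0530 in edgeR), the smallest adjusted p of any of the 9 genes. Because Hist1h1a passed the filter only through Sox2-KD, part of that contrast was built in. With 2 reads in each, the Cdk9-KD libraries were under the floor of 3 reads used here for a detectable level. Hist1h1d, the H1.3 gene, had 3 to 8 reads in a library and Hist1h1b, the H1.5 gene, 0 to 6.

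The 2 kept H2A genes also had their lowest group mean in Cdk9-KD, where Hist3h2a overlapped the libraries labelled hnRNPK-KD. Hist3h2a (chr11:58954685-58956830, + strand) had 8 and 5 reads in control, 11 and 13 in Sox2-KD, 4 and 1 in Cdk9-KD, and 5 and 3 in those labelled hnRNPK-KD. Its Sox2-KD libraries lay above control and its Cdk9-KD libraries below it, as for Hist1h1a. Both genes passed the filter only through their Sox2-KD libraries, so this likeness was partly built in and is no added support. The log2FC of Hist3h2a was 0.85 (SE 0.62) in Sox2-KD and -1.29 (SE 0.78) in Cdk9-KD against control, and 2.14 (SE 0.72, adjusted p = 0.106 in edgeR) between them. Its annotated span overlaps Trim17 and Gm44313, so reads of these genes cannot be told apart without the strand setting. Hist1h2ae had 14 and 6 reads in control, 13 and 5 in Sox2-KD, 4 and 4 in Cdk9-KD, and 18 and 6 in those labelled hnRNPK-KD. It was below control in Cdk9-KD (log2FC -1.24, SE 0.80, adjusted p = 0.636 in edgeR) and overlapped control in the other groups, and it overlaps Gm44394.

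**Figure D4:**
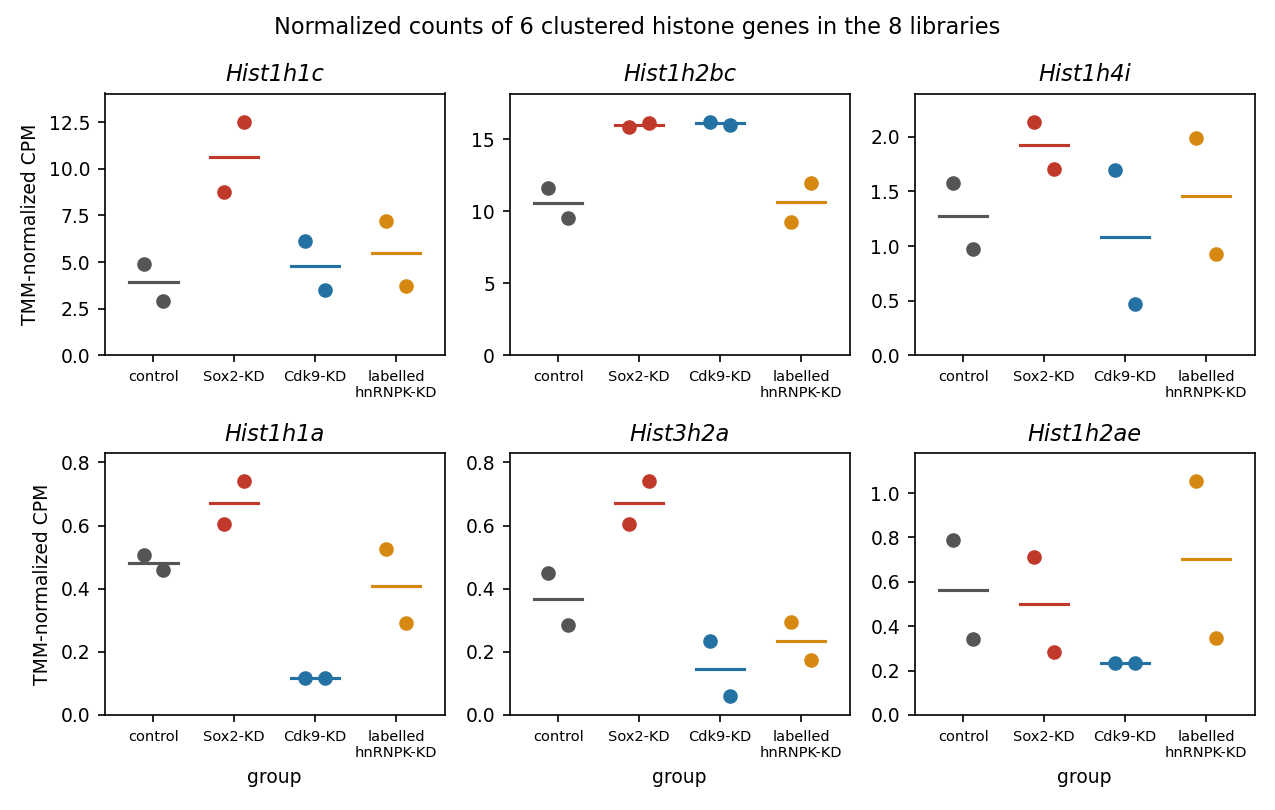
TMM-normalized CPM (vertical axes, each from 0) of 6 clustered histone genes in the 8 libraries by group, with each library as a point and the group mean as a line (n = 2). Hist1h1c is highest in Sox2-KD, and Hist1h2bc is higher in Sox2-KD and Cdk9-KD than in the other groups. Hist1h1a, Hist3h2a and Hist1h2ae have their lowest group mean in Cdk9-KD.

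The other tested H2B genes and the H4 gene Hist1h4i gave mostly overlapping groups. Hist2h2be had 22 and 11 reads in control, 29 and 10 in Sox2-KD, 11 and 12 in Cdk9-KD, and 18 and 22 in those labelled hnRNPK-KD, and every group overlapped control. Hist1h2bp had 17 and 3 reads in control, 9 and 11 in Sox2-KD, 17 and 4 in Cdk9-KD, and 14 and 10 in those labelled hnRNPK-KD. The spread within control was wider here than any difference between group means. Hist1h2be had 6 and 10 reads in control, 9 and 10 in Sox2-KD, 7 and 11 in Cdk9-KD, and 18 and 10 in those labelled hnRNPK-KD, and there its log2FC of 0.84 (SE 0.56, adjusted p = 0.787 in edgeR) was the highest of the 9 genes. Its span overlaps Hist1h1e and Gm11398. Hist1h4i had 28 and 17 reads in control, 39 and 30 in Sox2-KD, 29 and 8 in Cdk9-KD, and 34 and 16 in those labelled hnRNPK-KD. In CPM its Sox2-KD libraries lay just above control (log2FC 0.59, SE 0.58, adjusted p = 0.633 in edgeR), and the other groups overlapped it.

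Of the H3 genes none was tested. Hist1h3c had 5 and 7 reads in control, 6 and 9 in Sox2-KD, 4 and 1 in Cdk9-KD, and 8 and 12 in those labelled hnRNPK-KD. Hist1h3g had 4 to 8 reads in each library, Hist1h3d 1 to 7, Hist1h3h 0 to 6 and Hist1h3f 0 to 6. The H4 genes Hist1h4a, Hist1h4d and Hist1h4k had 0 to 6 reads in each, and of the remaining H2B genes Hist3h2ba had 1 to 10, Hist1h2bh 0 to 12 and Hist1h2bg 1 to 6. Hist1h2bk had 5 and 5 reads in control, 3 and 6 in Sox2-KD, 1 and 1 in Cdk9-KD, and 12 and 5 in those labelled hnRNPK-KD. In CPM Hist1h3c and Hist1h2bk were both below control in Cdk9-KD and above it in the libraries labelled hnRNPK-KD. These genes were not tested, and their order between groups rests on few reads.

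Over the 9 tested genes, both Sox2-KD libraries lay above both control libraries in 5 and below in 0, where the shares over all tested genes were 28.1% above and 25.2% below. In Cdk9-KD it was 1 above and 3 below, beside 21.3% and 17.9% of all tested genes. In the libraries labelled hnRNPK-KD the counts were 1 above and 0 below, beside 20.4% and 18.7%. Over all 23 genes, untested ones included, 6 were above control and 2 below in Sox2-KD, 2 above and 5 below in Cdk9-KD, and 3 above and 2 below in the libraries labelled hnRNPK-KD. The shares just given cover only genes that passed the filter, and none is given for genes with as few reads as the untested ones. The counts over 23 genes are therefore a description only. Hist1h1a and Hist3h2a, which passed the filter only through Sox2-KD, are among the 5 tested genes above control there. The median log2FC of the 9 genes was 0.473, -0.233 and 0.304 in turn, and that of all tested genes 0.021, 0.019 and 0.018. The control libraries also differed in order, since replicate 1 had more reads than replicate 2 in 17 of the 23 genes and fewer in 4, against 12 and 10 of the genes in Sox2-KD, 14 and 5 in Cdk9-KD and 14 and 8 in those labelled hnRNPK-KD. No share over all genes is given for this order, so it too only describes the 23 genes.

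**Figure D5:**
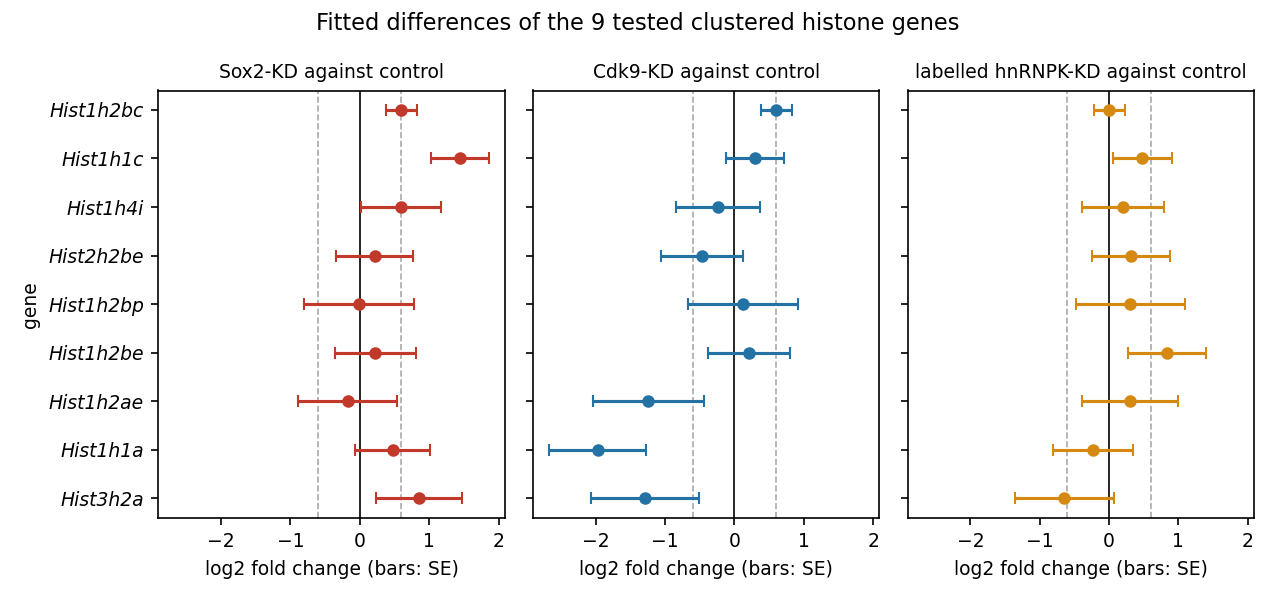
Fitted log2 fold change against control (horizontal axes) of the 9 tested clustered histone genes in Sox2-KD, Cdk9-KD and the libraries labelled hnRNPK-KD, with the standard error as bars and dashed lines at the fold threshold of 0.6 in either direction. Hist1h1c in Sox2-KD (1.45) and Hist1h1a in Cdk9-KD (-1.97) lie farthest from 0, and no gene passed the test.

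The genes that make, process and degrade these mRNAs were well measured and did not pass the test either. All 22 factors of a list of such genes were tested, and 0 were called in each of the 6 comparisons by edgeR's quasi-likelihood test, with 0 to 2 at an unadjusted p under 0.05. Slbp, which binds the stem-loop, stood at 139 and 138 CPM in control and at 115 and 91.4 CPM in Sox2-KD (log2FC -0.43, SE 0.18, adjusted p = 0.234 in edgeR). In Cdk9-KD its log2FC was -0.05 and in those labelled hnRNPK-KD 0.00. Npat, the coactivator of histone gene transcription, had log2FC values of -0.02, -0.10 and 0.16 against control in Sox2-KD, Cdk9-KD and the libraries labelled hnRNPK-KD. For Casp8ap2 (FLASH), a processing factor, they were -0.06, 0.00 and 0.26. The U7 particle proteins gave 0.08, -0.02 and -0.25 for Lsm10 and 0.02, 0.22 and 0.17 for Lsm11, and the nuclease Eri1 gave -0.13, 0.20 and 0.05. DESeq2 likewise called 0 of the 22 in each comparison.

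Replication-independent histone genes, most of whose mRNAs are polyadenylated and made throughout the cell cycle, gave far more reads in the same libraries. The 11 genes of that list summed to 2194 to 2831 unscaled CPM, 64.5 to 142 times the reads of the 23 clustered genes in the same library, with the lowest ratios in Sox2-KD. Per kilobase of exon H2afz, the H2A.Z gene, had a mean of 462 CPM and H3f3b, an H3.3 gene, 205 CPM, against 11.5 CPM for Hist1h2bc. H3f3a, the other H3.3 gene, had 124 CPM per kilobase and H2afx, the H2A.X gene, 122. H2afx is also known to make an mRNA that ends in a stem-loop in S phase, and Cenpa, another gene of the list, is known to be expressed mainly in G2. By edgeR 0 of the 11 were called in each of the 6 comparisons, with 0 to 3 at an unadjusted p under 0.05, and DESeq2 called 1, H2afy2, a macroH2A gene, in Sox2-KD against control. In Sox2-KD against control the log2FC was -0.32 for H3f3a, 0.18 for H3f3b, -0.25 for H2afz and 0.00 for H2afx, each with an adjusted p of at least 0.249 in edgeR.

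Other RNAs made without a poly(A) tail gave few reads in these libraries. On a list of small nuclear, nucleolar and other such RNAs, 22 names matched 23 genes. Together these gave 24 to 52 reads in a library, and 11 of the 23 were at 0 in all libraries. The U7 RNA gene Rnu7 was among those at 0. The 23 clustered histone genes gave 324 to 655 reads in a library, and 158 to 289 of them came from Hist1h2bc. The listed RNAs are of other kinds than histone mRNA, so their counts do not show what share of the histone reads came from tail-less molecules.

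Of 15 histone chaperones, 1 fell in Sox2-KD against control in edgeR's test, beside 4.32% of all tested genes called in either direction, and DESeq2 called 2 (Chaf1b and Set). Chaf1b, a subunit of the replication-coupled assembly factor CAF-1, went from 94.2 and 97.7 CPM to 62.5 and 62.8 CPM (log2FC -0.62, SE 0.14, adjusted p = 0.0393 in edgeR). Npm1, a nucleolar histone chaperone, was lower in Sox2-KD than in those labelled hnRNPK-KD (log2FC -0.62, adjusted p = 0.0464 in edgeR), and edgeR called no chaperone in the other 4 comparisons, where DESeq2 called 1, Hat1, in Cdk9-KD against control. The median log2FC of the chaperones in Sox2-KD against control was -0.377.

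The S phase genes had a median log2FC of -0.425 in Sox2-KD against control, and 3 of the 26 fell in edgeR's test, where DESeq2 called 5. Among them, Pola1, the catalytic subunit of DNA polymerase alpha, had a log2FC of -1.07 (adjusted p = 0.0110 in edgeR) and Uhrf1, of DNA methylation maintenance, -0.70 (adjusted p = 0.0367 in edgeR). Of the S phase genes 0 were called by edgeR or DESeq2 in Cdk9-KD or the labelled hnRNPK-KD group against control, with 3 and 0 at an unadjusted p under 0.05, and Slbp stands in both this list and that of the processing factors. Of 20 G2 and M phase genes 0 were called against control by edgeR, with 8, 2 and 1 at an unadjusted p under 0.05 and 0 by DESeq2, and their median log2FC in Sox2-KD was -0.315.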

How the data were processed

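Poly(A) RNA was sequenced as 150-base read pairs. Per the study's methods, Trimmomatic removed adapters and poor read pairs and STAR placed the rest on mm10 with GENCODE vM23 models. The authors deposited whole-number counts for each gene and library, without scaling. The submitters' processing notes name STAR 2.7.9a, featureCounts 2.0.1 and FastQC. Strand setting and treatment of multi-mapping reads were not given in the sources used here. Symbols came from GENCODE vM21 (GRCm38), and 181 of 55335 genes had none.

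The counts were tested with edgeR 4.0.16 in R 4.3.3 (TMM, filterByExpr with minimum count 10 and minimum total 15, 16504 genes, group term, all 8 libraries, quasi-likelihood test, Benjamini-Hochberg). Called genes had an adjusted p below 0.05 with a log2FC above 0.6 in size. The scripts were tested on simulated data. DESeq2 1.42.0 was an alternative. Each knockdown was compared with control and with the other knockdowns.

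The genes, the lists (processing factors, replication-independent histones, chaperones, S phase, G2 and M phase, RNAs without a poly(A) tail, and ESC, fibroblast, trophectoderm and primitive endoderm markers) and the rule for named genes were chosen with earlier results of these data known. Named were genes called in any comparison, the 4 highest and 4 lowest log2FC of each knockdown, the 12 highest CPM per kilobase, genes of the Hist3 and Hist4 clusters, those next to the limit of 20 reads, the targeted genes, the factors above, and at most 3 called genes of other lists. The pairs, stem-loops and promoters were examined after the counts were seen. The floor for a detectable level was 3 reads in a library. Sequence windows were 100 bases of annotated transcripts.

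Marker lists in Sox2-KD against control gave 1 call of 12 ESC markers (Utf1, higher), 1 of 5 tested fibroblast markers (Lum, higher), 5 of 7 tested trophectoderm markers (Eomes, Gata3, Krt7, Krt8 and Krt18, higher) and 3 of 7 tested primitive endoderm markers (Dab2 and Gata6 higher, Lama1 lower). The values of 1 called S phase gene are not reported here.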

Additional observations from a re-analysis of the deposited data

How the results depend on the processing

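The count of called clustered histone genes was 0 in all 6 comparisons and stayed 0 in most alternatives. In Sox2-KD against control it was 1 with DESeq2 and 1 with edgeR's likelihood ratio test, in both cases Hist1h1c, whose adjusted p ran from 0.0167 to 0.384 over all alternatives and the leave-one-out fits. In Sox2-KD against Cdk9-KD it was 1 with library totals in place of TMM (Hist1h1a, adjusted p = 0.0455 in edgeR) and 2 with the likelihood ratio test (Hist1h1a and Hist3h2a). Leaving out any library kept the count at 0 in every comparison. With the replicate block the count was 0 in each comparison and the smallest adjusted p in Sox2-KD against control was 0.0602 in edgeR. Deviations of same-numbered libraries correlated at -0.223 to 0.21, so the numbers were not taken to pair samples, and the block moved the calls over all genes from 713 to 695 in Sox2-KD and from 23 to 15 in Cdk9-KD. The median log2FC of the tested histone genes in Sox2-KD was 0.183 over 23 genes with no filter and 0.601 over the 3 genes with at least 10 counts in every library, and in Cdk9-KD 0.285 over those 3 genes, which differ by construction in the genes they cover. Leaving out 1 library gave medians of 0.339 (without control replicate 2) to 0.743 (without control replicate 1) for Sox2-KD, -1.265 (without Cdk9-KD replicate 1) to -0.044 (without control replicate 1) for Cdk9-KD and -0.130 to 0.658 for the labelled hnRNPK-KD group. Unscaled CPM over the 9 tested genes alone was 34.05 in Sox2-KD and 20.89 in the labelled hnRNPK-KD group. Chosen after seeing the data, sums over all 69 named genes gave 41.18 in Sox2-KD, and sums without Hist1h2bc and Hist1h1c gave 8.111 for control, 9.963 for Sox2-KD, 6.136 for Cdk9-KD and 8.769 for the group labelled hnRNPK-KD.

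Signs of small single-gene values depended on the setting, and none of these was called. Hist1h2bp in Sox2-KD was 0.05 with library totals and 0.20 with the replicate block, and Hist1h2bc in the labelled hnRNPK-KD group was -0.00 with DESeq2 and with its size factors, -0.03 with library totals, and -0.01 both with 10 counts in every library and with the 4 libraries compared. Leaving out 1 library gave these log2FC ranges. In Sox2-KD they were -0.72 to 0.76 for Hist2h2be, -0.77 to 1.65 for Hist1h2bp, -0.12 to 0.64 for Hist1h2be and -0.98 to 0.52 for Hist1h2ae. In Cdk9-KD they were -0.20 to 0.68 for Hist1h1c, -1.45 to 0.41 for Hist1h4i, -0.89 to 0.06 for Hist2h2be, -1.26 to 1.76 for Hist1h2bp and -0.15 to 0.61 for Hist1h2be. In the labelled hnRNPK-KD group they were -0.22 to 0.17 for Hist1h2bc, -0.08 to 0.88 for Hist1h1c, -0.46 to 0.62 for Hist1h4i, -0.10 to 0.86 for Hist2h2be, -0.46 to 1.96 for Hist1h2bp, -0.70 to 0.99 for Hist1h2ae, -0.73 to 0.10 for Hist1h1a and -0.70 to 0.03 for Hnrnpk. Hist1h1c in Sox2-KD ranged from 1.11 to 1.85. The call of Sox2 in Sox2-KD was lost with library totals, both other filters, the 4 libraries compared and the block, with log2FC of -0.57 to -0.68, and that of Cdk9 in Cdk9-KD was gained with DESeq2 and the likelihood ratio test. Depth limits the tests here, since 14 of the 23 genes did not pass the filter on counts per library and were fitted only with no filter. The cause of the changes between settings was not tested.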
